A study of Mus musculus with 3 samples.

Results

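Ifit1, Ifit2, Ifit3 and Ifit3b, the mouse genes for interferon-induced proteins with tetratricopeptide repeats, were followed across the cell types of a mouse non-small cell lung cancer. They are 4 of the 32285 genes in the matrices, and they were chosen by their measured level, which earlier readings of these libraries had shown to differ between cell types and groups, so what follows describes them and tests nothing. The study made 3 droplet single-cell RNA libraries with 10x Genomics 3′ v3.1 chemistry, 1 for each of the groups labelled PD-L1, AI-Exo and PBS. All carry the same tissue label, non-small cell lung cancer. The labels do not spell out the group names, and they leave out the tumour model, strain, age, dose, number of mice, time of sampling and any cell sort. The series title speaks of exosomes that inhibit autophagy, and the study's question was how the immune cells of the tumour looked after drug treatment. With 1 library per group, a difference between libraries has no replicate check, no p-value can be given, and treatment, animal and library preparation cannot be told apart.

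Ifit genes are barely expressed in resting cells and are among the transcripts most strongly induced by type I and type III interferon. These interferons bind their receptors on the cell surface and activate Janus kinases, and a complex that contains Stat2 and Irf9 then binds interferon-stimulated response elements (ISREs) in promoters. Irf3 and Irf7 can act on the same elements directly after a virus or free nucleic acid is sensed. The Ifit1 protein binds the cap of RNA that lacks host-type methylation and blocks its translation. Ifit2 binds RNA and, in mice, limits several viruses in the nervous system, and Ifit3 works as a partner of the other family members. Ifit3b is a near copy of Ifit3.

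The 4 genes lie next to each other on chromosome 19, with 2 relatives, Ifit1bl1 and Ifit1bl2, between them. In the GENCODE annotation of GRCm38, matched by gene identifier, Ifit2 (ENSMUSG00000045932) spans chr19:34550694-34576419, Ifit3 (ENSMUSG00000074896) chr19:34583531-34588731, Ifit3b (ENSMUSG00000062488) chr19:34607970-34613401 and Ifit1 (ENSMUSG00000034459) chr19:34640871-34650009, all on the plus strand. No label or header names the build behind the matrices. The promoter stretches shown are those around the ISRE core, because 3 of the 4 members hold this element. They come from RefSeq promoter windows of 300 bases on GRCm38.p6, read 5′ to 3′ on the strand of the gene, and capitals mark matches to the core (GAAANNGAAA, or TTTCNNTTTC on the other strand).
Ifit3, chr19:34583361-34583428, plus strand: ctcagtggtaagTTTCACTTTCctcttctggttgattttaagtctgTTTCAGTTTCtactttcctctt
Ifit3b, chr19:34607757-34607824, plus strand: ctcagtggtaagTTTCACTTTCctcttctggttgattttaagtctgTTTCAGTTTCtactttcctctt
Ifit1, chr19:34640773-34640825, plus strand: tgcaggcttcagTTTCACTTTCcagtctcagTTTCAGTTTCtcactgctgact
The Ifit3 and Ifit3b stretches were identical at 68 of 68 bases, and each of the 3 genes had 2 matches. The first bases of the matches lay 156 and 122 bases before the start site in Ifit3, 188 and 154 in Ifit3b, and 104 and 85 in Ifit1. Ifit1 and Ifit1bl2 are divergent neighbours 127 bases apart, so the same 2 matches also fall in the window of Ifit1bl2. An ISRE core was present in 3.44% of the 32851 promoter windows, and 2 or more in 0.225%. Ifit2 had no match in its windows, which says only that these letters are not there. It had 1 match to the gamma-activated sequence, an element of the interferon gamma response (TTCNNNGAA, which reads the same on both strands), 241 bases before the start site, as did 8.30% of all windows. Of the other interferon-induced effectors listed for this work, 21 of 28 had a window and 11 of these (52.4%) held an ISRE core, against 3.99% of 27025 genes.

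Ifit3 and Ifit3b transcripts were identical at 1663 of 1697 aligned bases. Over the last 500 bases of Ifit3, where 3′ reads fall, identity was 95.2%, and 27 of the 411 stretches of 90 bases there also occur in Ifit3b. Of the 411 such stretches in the last 500 bases of Ifit3b, 0 occur in Ifit3. Because the transcripts are this alike, counts of the pair are given also as a sum, and their separate values are uncertain.

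A barcode was kept with at least 500 UMIs (unique molecular identifiers, each standing for 1 captured transcript), 200 genes and at most 20% mitochondrial UMIs. This left 9697 cells in PD-L1, 10457 in AI-Exo and 9359 in PBS, with medians of 3948, 4425 and 4380 UMIs per cell. Cells were gated into types by fixed markers that include no Ifit gene and no gene of the lists of interferon-induced genes used here, although Ly6c2 of the classical monocyte list is known to respond to interferon, and each gate had all markers of its own list for the neutrophils, classical monocytes, T cells and NK cells described here. A cell with markers of 2 lineages was set aside as mixed (760, 889 and 677 cells), and 809, 740 and 709 cells met no gate. Between 23 and 33 barcodes were shared by any 2 libraries. Levels are sums over the cells of a gate and library, per 1000000 UMIs of that sum (CPM). Brackets hold 95% intervals for counting error alone. "Higher" and "lower" mean a ratio of at least 1.5 between CPM plus 10 in 1 library and CPM plus 10 in the other, and ratios are given on the log2 scale. A gene counts as measured at a mean of 10 CPM over the libraries compared. Because 3′ reads come from transcript ends, levels of different Ifit genes are not ranked against each other.

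The rank of the cell types by summed Ifit level differed between the libraries. In PD-L1, neutrophils stood first of the 15 immune gates with at least 50 cells, at 1629 CPM [1597 to 1661]. They were followed by classical monocytes at 850.7 CPM [818.9 to 883.4] and nonclassical monocytes at 827.4 CPM [745.1 to 916.5], whose intervals overlap, and then by macrophages and type 2 conventional dendritic cells, which overlap as well. In AI-Exo, with 13 such gates, macrophages at 648.0 CPM, NK cells at 643.6 CPM and T cells with no Cd4 or Cd8 UMI at 615.4 CPM led and could not be separated by counting error, and neutrophils came 9th. In PBS, with 14 such gates, CD4 T cells stood alone at the top at 1039 CPM [996.7 to 1082], and T cells with no Cd4 or Cd8 UMI, NK cells and type 2 dendritic cells came next with overlapping intervals. PBS neutrophils were 8th, and PBS classical monocytes 11th at 178.7 CPM [170.5 to 187.2]. Alveolar macrophages were last in PD-L1 and PBS, and last with B cells in AI-Exo.

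**Figure D1:**
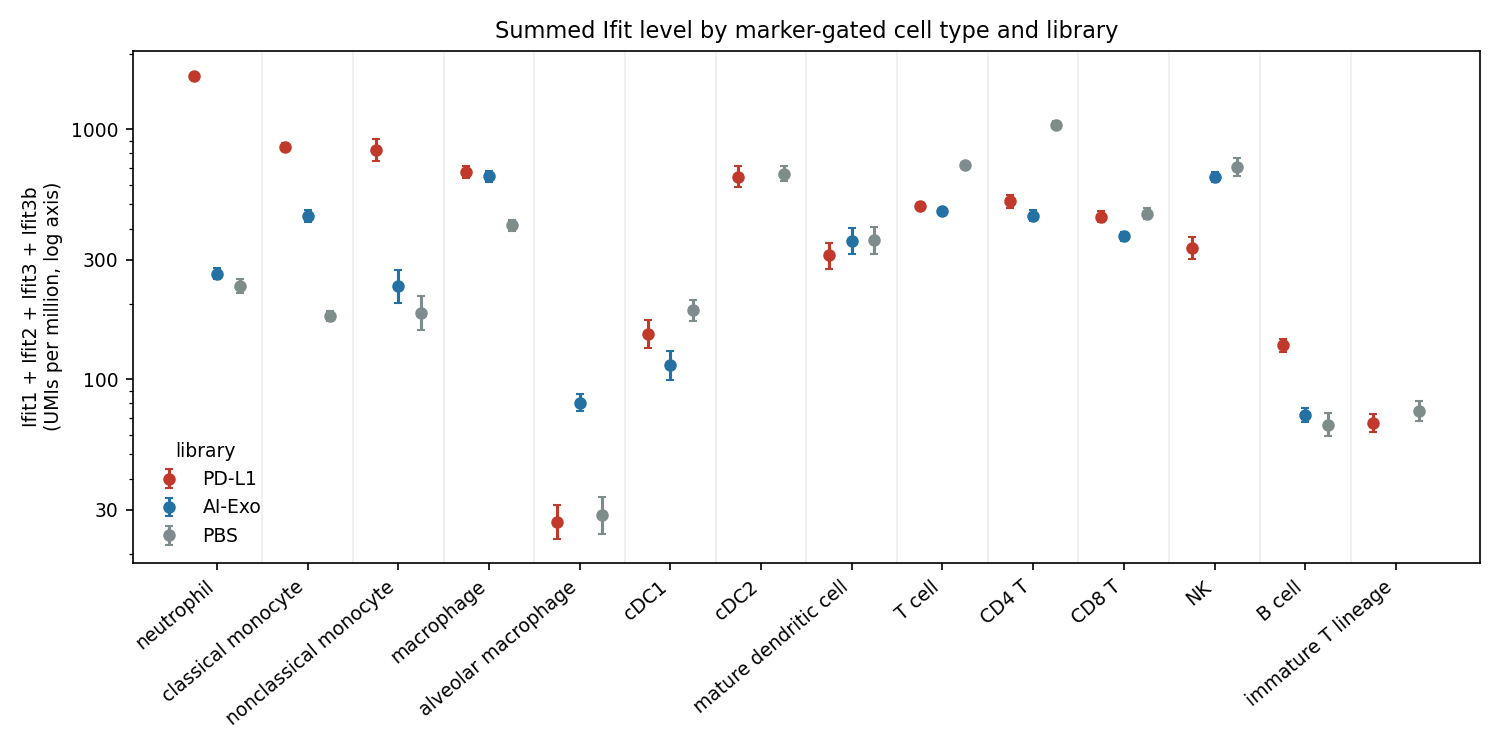
Summed level of Ifit1, Ifit2, Ifit3 and Ifit3b (CPM, log axis) in gated immune cell types, with 1 point per library and 95% Poisson intervals, for sums of at least 50 cells. Neutrophils reach 1629 CPM in PD-L1, against 264.1 CPM in AI-Exo and 235.1 CPM in PBS, while CD4 T cells are highest in PBS at 1039 CPM.

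Among the immune gates with at least 50 cells in each library, neutrophils had the highest PD-L1 over PBS ratio. All 4 genes were higher in PD-L1 than in PBS, against 3.61% of the 5568 genes measured in neutrophils. Their sum was 1629 CPM in PD-L1 and 264.1 CPM [251.5 to 277.1] in AI-Exo, against 235.1 CPM [220.2 to 250.7] in PBS. The log2 ratio was 2.74 for PD-L1 over PBS, 0.16 for AI-Exo over PBS and -2.58 for AI-Exo over PD-L1. PD-L1 stood apart, and the intervals of AI-Exo and PBS overlapped. With each cell given equal weight, the AI-Exo over PBS ratio was 0.66 and passed. The median log2 ratio of all measured genes was -0.15 for PD-L1 over PBS in neutrophils, and with scaling by edgeR's TMM factors, which corrects for such a shift, the Ifit ratio was 2.98.

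The 4 genes did not move by the same amount in neutrophils. Ifit3 was at 666.3 CPM [646 to 687] in PD-L1 and 77.2 CPM [70.5 to 84.4] in AI-Exo, against 40.15 CPM [34.2 to 46.9] in PBS, with log2 ratios to PBS of 3.75 and 0.80. Ifit3b was at 225.1 CPM in PD-L1 and 29.5 CPM [25.4 to 34.1] in AI-Exo, against 22.2 CPM [17.8 to 27.4] in PBS, with log2 ratios of 2.87 and 0.29. Ifit3 was thus the 1 member that was higher in AI-Exo than in PBS neutrophils, beside 5.29% of the genes measured there. Ifit1 was at 485.8 CPM [468.5 to 503.5] in PD-L1 and 104.3 CPM [96.5 to 112.7] in AI-Exo, against 106.1 CPM [96.2 to 116.7] in PBS (log2 ratios 2.09 and -0.02). Ifit2 was at 252.0 CPM [239.6 to 264.9] in PD-L1 and 53.0 CPM [47.4 to 59.0] in AI-Exo, against 66.7 CPM [58.9 to 75.2] in PBS (log2 ratios 1.77 and -0.28). For Ifit1 the AI-Exo and PBS intervals overlapped, and for Ifit2 they overlapped only at their ends. All 4 genes were lower in AI-Exo than in PD-L1, against 2.54% of the genes measured.

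The makeup of the Ifit transcripts in neutrophils differed between the libraries. In PD-L1 neutrophils 40.9% of the Ifit UMIs were Ifit3 and 29.8% Ifit1. In AI-Exo neutrophils the shares were 29.2% and 39.5%, and in PBS neutrophils 17.1% and 45.1%. Ifit3b made up 25.3% [24.1 to 26.4] of the Ifit3 and Ifit3b pair in PD-L1 neutrophils and 27.65% [24.3 to 31.2] in AI-Exo neutrophils, against 35.6% [29.7 to 41.9] in PBS neutrophils. These intervals count UMIs and not cells. As given below, a few PBS neutrophils with a UMI of the interferon beta gene Ifnb1 held a large part of the PBS UMIs. Their part in these shares was not tested. The relative Ifit1bl2 was at 135.9 CPM in PD-L1 neutrophils and 42.0 CPM in AI-Exo neutrophils, against 27.3 CPM in PBS neutrophils (log2 ratios to PBS 1.97 and 0.48). Ifit1bl1 was at 15.2 and 4.3 CPM, against 6.57 CPM in PBS. Both relatives were thus higher in PD-L1, as were the members that flank them.

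**Figure D2:**
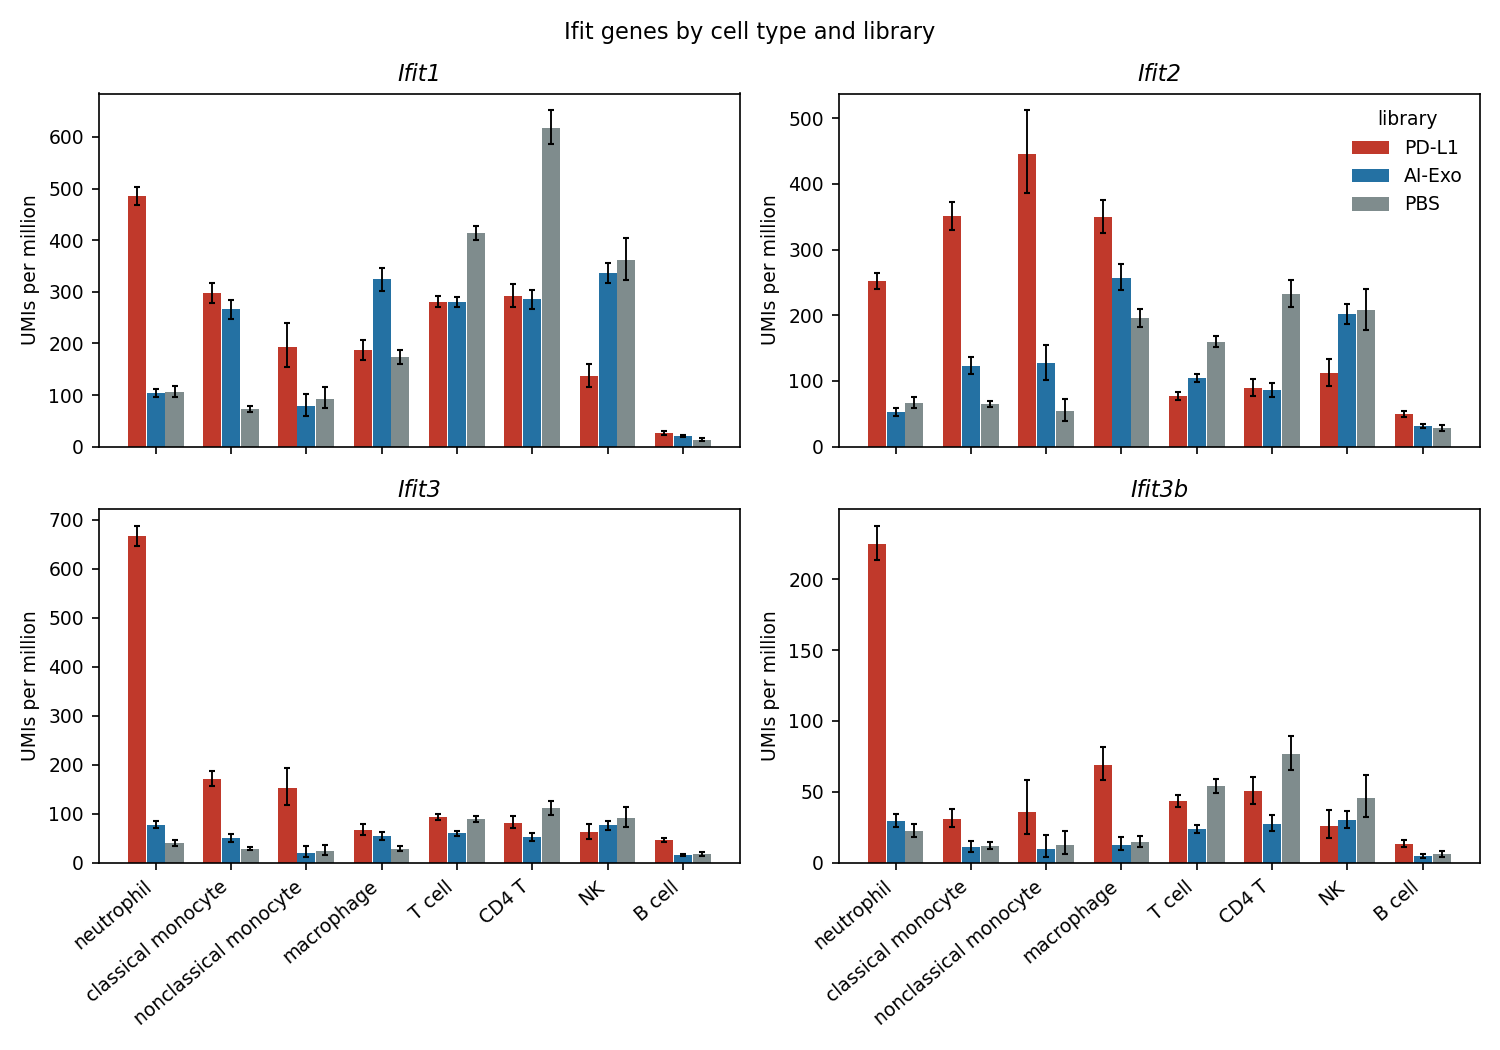
Level of each Ifit gene (CPM, 1 panel per gene) in 8 cell types, with 1 bar per library and 95% Poisson intervals. The PD-L1 bar is the highest in neutrophils for all 4 genes (Ifit3 at 666.3 CPM), whereas the PBS bar of Ifit1 is the highest in CD4 T cells at 618.0 CPM.

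Granule genes, which mark less mature neutrophils, also differed between the libraries. Their list (Camp, Ltf, Ngp, Lcn2, Mmp8) summed to 3942 CPM in PD-L1 neutrophils and 17716 CPM in AI-Exo neutrophils, against 4814 CPM in PBS neutrophils, with 5 of 5 markers detected in each. Neutrophils with at least 2 granule markers had 1171 Ifit CPM [1117 to 1227] in PD-L1 and 179.9 [165.1 to 195.7] in AI-Exo, against 110.9 [92.8 to 131.6] in PBS. Those with fewer had 1777 CPM [1739 to 1816] in PD-L1 and 342.3 CPM in AI-Exo, against 288.4 CPM in PBS. The PD-L1 over PBS log2 ratio was 3.29 with granule markers and 2.58 without, so neutrophils of both kinds showed it. Cells with granule markers were also higher in AI-Exo than in PBS, at a log2 ratio of 0.65. Markers of other cells were low in the neutrophil gate. The summed classical monocyte list was at 294, 334 and 174 CPM and the macrophage list at 215, 183 and 223 CPM in PD-L1, AI-Exo and PBS, against 91979, 108470 and 71142 CPM for the neutrophil list.

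The share of neutrophils with an Ifit transcript also differed. After thinning each cell to 1000 UMIs, 1160 of 1840 PD-L1 neutrophils (63.0% [60.8 to 65.3]) and 233 of 1415 AI-Exo neutrophils (16.5% [14.6 to 18.5]) had at least 1 Ifit UMI, against 96 of 1301 PBS neutrophils (7.38% [6.02 to 8.94]). Before thinning the shares were 80.9% and 31.1%, against 12.4% in PBS. Alveolar macrophages, a gate with a low Ifit level, had 2.36% in PD-L1 and 3.70% in AI-Exo, against 0.704% in PBS at the same thinned depth, and their median depths before thinning were 11842, 13199 and 10420 UMIs against 2718, 2850.5 and 2436 for neutrophils. The share of AI-Exo neutrophils with an Ifit UMI was thus above that of PBS neutrophils beyond counting error, although their summed levels overlapped. Positive cells held 2.77 Ifit UMIs on average in PD-L1 and 1.78 in AI-Exo, against 2.57 in PBS. In PBS 14 of 1301 neutrophils held 5 or more, and in AI-Exo 14 of 1415, against 187 of 1840 in PD-L1.

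Cells with UMIs of at least 2 of the genes made up 30.7% of PD-L1 neutrophils and 3.60% of AI-Exo neutrophils, against 1.84% of PBS neutrophils. Genes of the family were found together in every library. Ifit1 was present in 39.0% [35.8 to 42.3] of PD-L1 neutrophils with a UMI of the Ifit3 and Ifit3b pair, against 22.1% of those without. In AI-Exo the shares were 21.05% [14.5 to 29.0] against 5.54%, and in PBS 34.0% [21.5 to 48.3] against 2.88%.

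**Figure D3:**
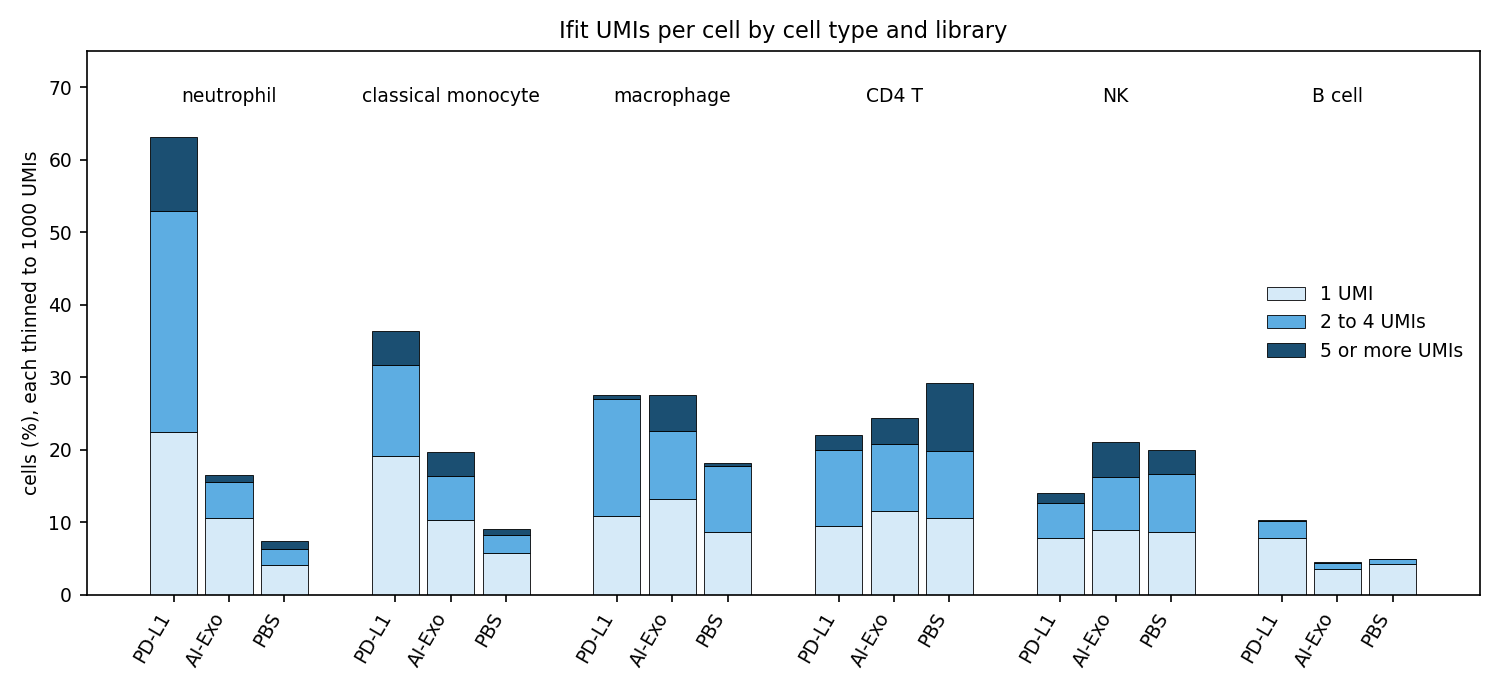
Share of cells (%) with 1, 2 to 4, or 5 or more Ifit UMIs after thinning each cell to 1000 UMIs, as stacked bars per library in 6 cell types. In neutrophils 10.2% of PD-L1 cells hold 5 or more, against 0.99% in AI-Exo and 1.08% in PBS, whereas in CD4 T cells 9.26% of PBS cells do, against 2.08% in PD-L1 and 3.53% in AI-Exo.

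Free RNA outside cells held Ifit transcripts as well. Barcodes of at most 100 UMIs had 462.5 Ifit CPM [440.8 to 485] in PD-L1 and 340.7 [322.6 to 359.6] in AI-Exo, against 340.9 [321.6 to 361] in PBS. The gene least enriched in neutrophils relative to free RNA bounds the part of free RNA in the neutrophil sums at 1.38% of the UMIs in PD-L1, 3.53% in AI-Exo and 2.60% in PBS. At these bounds free RNA gave at most 6.38 CPM of the Ifit level in PD-L1 neutrophils and 12.02 CPM in AI-Exo neutrophils, against 8.85 CPM in PBS neutrophils.

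Classical monocytes, the circulating precursors that enter inflamed tissue, had a higher summed level than PBS in both other libraries. The 4 genes summed to 850.7 CPM in PD-L1 and 450.2 CPM [426.9 to 474.4] in AI-Exo, against 178.7 CPM in PBS, with log2 ratios to PBS of 2.19 and 1.29. All 4 were higher in PD-L1, against 8.09% of the 7269 genes measured, and 3 of 4 in AI-Exo, against 4.27%. With TMM factors Ifit3 did not pass in AI-Exo over PBS (0.577). Ifit1 was at 297.4 CPM in PD-L1 and 266.1 CPM in AI-Exo, against 73.4 CPM in PBS (log2 ratios 1.88 and 1.73). Ifit2 was at 350.7 and 123.2 CPM, against 64.7 CPM in PBS (2.27 and 0.84), and Ifit3 at 171.6 and 49.6 CPM, against 28.6 CPM in PBS (2.23 and 0.62). Ifit1 thus stood at a similar level in PD-L1 and AI-Exo monocytes, with a log2 ratio of -0.15 between them, while Ifit2 and Ifit3 were lower in AI-Exo than in PD-L1 at -1.44 and -1.61. Ifit3b was at 30.9 CPM in PD-L1 and 11.3 CPM in AI-Exo, against 12.04 CPM in PBS. In all, 3 of 4 genes were lower in AI-Exo than in PD-L1, against 4.62% of the genes measured.

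The gate held 526 PD-L1 cells and 332 AI-Exo cells, against 1148 PBS cells, with medians of 5055, 8035 and 8123 UMIs. Thinned to 1000 UMIs, 36.4% [32.3 to 40.7] of PD-L1 monocytes and 19.6% [15.5 to 24.3] of AI-Exo monocytes had an Ifit UMI, against 8.99% [7.4 to 10.8] of PBS monocytes. The 3 intervals did not overlap. Neutrophil markers in this gate summed to 559 CPM in PD-L1 and 511 CPM in AI-Exo, against 1108 CPM in PBS, and platelet markers to 70.7 and 81.4 CPM, against 255 CPM. Their part in the result was not tested, and 22, 20 and 60 cells lay near the border to another myeloid gate. Nonclassical monocytes, the patrolling kind, gave 827.4 CPM in PD-L1 and 235.4 CPM [201.5 to 273.5] in AI-Exo, against 184.3 CPM [156.8 to 215.2] in PBS, from 113, 155 and 183 cells. All 4 genes were higher in PD-L1, but so were 14.5% of the genes measured, and 1 of 4 in AI-Exo (Ifit2, log2 ratio 1.09), beside 14.7%. Ifit2 was at 445.2 CPM in PD-L1 and 126.7 CPM in AI-Exo, against 54.1 CPM in PBS.

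Macrophages, gated by complement C1q and other markers, were at 673.5 CPM [638.8 to 709.6] in PD-L1 and 648.0 CPM [617.3 to 679.8] in AI-Exo, against 412.1 CPM [392.3 to 432.8] in PBS. Their sums were alike in PD-L1 and AI-Exo, although 1 of 4 genes was higher in AI-Exo than in PD-L1 and 1 was lower. Ifit1 was at 187.0 CPM in PD-L1 and 324.2 CPM in AI-Exo, against 173.6 CPM in PBS (log2 ratios 0.10 and 0.86). Ifit2 was at 349.6 and 257.0 CPM, against 195.8 CPM in PBS (0.81 and 0.38), and Ifit3 at 67.7 and 54.0 CPM, against 27.9 CPM in PBS (1.04 and 0.76). Ifit3b was at 69.2 CPM in PD-L1 and 12.8 CPM in AI-Exo, against 14.85 CPM in PBS. It made up 50.5% [44.6 to 56.5] of the pair in PD-L1 macrophages and 19.2% in AI-Exo macrophages, against 34.7% in PBS. The interval of this share counts UMIs and not cells. After thinning, 17 of 156 PD-L1 macrophages and 12 of 182 AI-Exo macrophages had a UMI of the pair, against 8 of 254 in PBS. Whether a few cells set these shares was not tested. In PD-L1 3 of 4 genes were higher than in PBS, against 3.37% of the genes measured, and in AI-Exo 2 of 4, against 4.4%. Once macrophages with an Ifnb1 UMI were left out, Ifit1 (0.36) and Ifit3 (0.02) no longer passed in AI-Exo over PBS. The macrophage Ifit1 log2 ratio of AI-Exo over PD-L1 was then 0.21, against 0.76 with all macrophages. Alveolar macrophages were low at 26.9 CPM [22.8 to 31.4] in PD-L1 and 80.6 CPM [74.7 to 86.8] in AI-Exo, against 28.5 CPM [23.9 to 33.7] in PBS. Both members measured there in AI-Exo against PBS, Ifit1 (41.2 against 17.5 CPM) and Ifit2 (28.05 against 7.18 CPM), were higher, beside 1.66% of the genes measured. Without barcodes that held an Ifnb1 UMI, the log2 ratio of Ifit1 was 0.38, against 0.89 with them.

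In type 1 and mature dendritic cells no summed level was higher than in PBS in either of the other libraries. Type 1 conventional dendritic cells, which cross-present antigen, were at 151.9 CPM in PD-L1 and 113.5 CPM in AI-Exo, against 188.4 CPM in PBS (log2 ratios -0.29 and -0.68), from 103, 122 and 136 cells. The AI-Exo ratio no longer passed without cells scored as doublets by Scrublet (-0.56) or with 1 more marker required for the gate (-0.31). Their Ifit1 was at 11.9 CPM in PD-L1 and 41.2 CPM in AI-Exo, against 49.6 CPM in PBS, and their Ifit2 at 126.8 and 62.1 CPM, against 125.6 CPM. In PD-L1 1 of 3 measured genes was lower than in PBS (Ifit1, log2 ratio -1.44), beside 1.33% of the genes measured, and in AI-Exo 1 of 2 (Ifit2, -0.91), beside 1.07%. Ifit2 made up 83.5% of the Ifit UMIs in PD-L1 cells of this type and 54.7% in AI-Exo, against 66.7% in PBS. Mature dendritic cells were at 312.2 CPM in PD-L1 and 356.7 CPM in AI-Exo, against 359.6 CPM in PBS. Type 2 cells were at 645.9 CPM in PD-L1 and 310.6 CPM [267.8 to 358.3] in AI-Exo, against 663.4 CPM in PBS, but the AI-Exo value rests on 42 cells (log2 ratio to PBS -1.07).

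CD4 T cells went the other way. They were at 514.1 CPM [485.2 to 544.2] in PD-L1 and 451.2 CPM [428.6 to 474.6] in AI-Exo, against 1039 CPM in PBS, with log2 ratios of -1.0 and -1.19. Ifit1 was at 292.2 CPM in PD-L1 and 285.3 CPM in AI-Exo, against 618.0 CPM in PBS (-1.06 and -1.09), and Ifit2 at 89.7 and 85.65 CPM, against 232.0 CPM in PBS (-1.28 and -1.34). Ifit3 was at 81.9 CPM in PD-L1 and 52.8 CPM in AI-Exo, against 111.8 CPM in PBS (-0.41 and -0.96), and Ifit3b at 50.3 and 27.4 CPM, against 76.75 CPM in PBS (-0.53 and -1.21). PBS was the highest library for each gene. In PD-L1 2 of 4 genes were lower than in PBS, against 2.44% of the genes measured, and in AI-Exo 4 of 4, against 2.77%.

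The share of CD4 T cells with an Ifit UMI differed less than the level. It was 22.0% [18.2 to 26.2] in PD-L1 and 24.3% [20.7 to 28.2] in AI-Exo, against 29.1% [24.9 to 33.6] in PBS, with overlapping intervals. Positive cells held 2.56 Ifit UMIs in PD-L1 and 2.41 in AI-Exo, against 4.33 in PBS, and 9 of 432 PD-L1 cells and 19 of 539 AI-Exo cells held 5 or more, against 41 of 443 PBS cells. CD8 T cells were at 446.0 CPM [423.6 to 469.4] in PD-L1 and 372.1 CPM [355.6 to 389.1] in AI-Exo, against 459.2 CPM [437.2 to 482.0] in PBS, so no sum passed the ratio. In each of the other libraries 1 of 4 genes was lower than in PBS, Ifit2 in PD-L1 (75.2 against 117.9 CPM) and Ifit3b in AI-Exo (16.7 against 37.2 CPM), beside 0.734% and 2.32% of the genes measured.

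NK cells had less Ifit transcript in PD-L1 than in either of the other libraries. They were at 335.7 CPM [302.6 to 371.4] in PD-L1 and 643.6 CPM [617.0 to 671.1] in AI-Exo, against 707.1 CPM [651.9 to 765.6] in PBS, from 235, 601 and 212 cells. The log2 ratio was -1.05 for PD-L1 over PBS, -0.13 for AI-Exo over PBS and 0.92 for AI-Exo over PD-L1. Ifit1 was at 136.1 CPM in PD-L1 and 336.3 CPM in AI-Exo, against 362.3 CPM in PBS, and Ifit2 at 111.9 and 201.2 CPM, against 207.3 CPM in PBS. Ifit3 was at 61.8 CPM in PD-L1 and 76.2 CPM in AI-Exo, against 92.0 CPM in PBS, and Ifit3b at 26.0 and 29.9 CPM, against 45.4 CPM. In PD-L1 3 of 4 genes were lower than in PBS, against 4.04% of the genes measured. Ifit2 no longer passed with each cell given equal weight (-0.32), nor did Ifit3b with 1 more marker required for the gate (-0.52). In AI-Exo none of 4 passed in either direction, beside 3.15% higher and 3.54% lower over all genes. Against PD-L1, 2 of 4 were higher in AI-Exo (Ifit1 and Ifit2), beside 1.96%. The share of NK cells with an Ifit UMI was 14.0% [9.76 to 19.2] in PD-L1 and 126 of 599 cells (21.04% [17.8 to 24.5]) in AI-Exo, against 42 of 210 cells (20% [14.8 to 26.1]) in PBS, with overlapping intervals.

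B cells were low, at 136.5 CPM [128.6 to 144.8] in PD-L1 and 72.1 CPM [67.6 to 76.9] in AI-Exo, against 65.8 CPM [59.1 to 73.1] in PBS. All 3 members measured were higher in PD-L1 than in PBS, against 0.641% of the 7640 genes measured. With 1 more marker required for the gate, Ifit1 (0.52) and Ifit2 (0.57) no longer passed. Ifit3 differed most, at 46.4 CPM in PD-L1 and 15.3 CPM in AI-Exo, against 17.9 CPM in PBS (log2 ratios 1.02 and -0.14). In AI-Exo none of the 3 passed in either direction, beside 0.159% higher and 0.753% lower. After thinning, 10.3% [8.92 to 11.7] of PD-L1 B cells and 4.50% of AI-Exo B cells had an Ifit UMI, against 4.97% of PBS B cells. Immature T-lineage cells, with 694 in PD-L1, 0 in AI-Exo and 691 in PBS, were at 66.9 CPM in PD-L1, against 74.7 CPM in PBS. Cells gated by tumour-like markers (Rhox5, Hmga2 and keratins) were few and low. In all, 22 PD-L1 cells held 4 Ifit UMIs (2.9 CPM [0.8 to 7.4]) and 47 AI-Exo cells held 13 (5.3 CPM [2.8 to 9.1]), against 52 in 50 PBS cells (19.9 CPM [14.9 to 26.1]).

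Over all cells kept, the Ifit UMIs numbered 30931 in PD-L1 and 23982 in AI-Exo, against 20495 in PBS. Neutrophils held 32.3% of them in PD-L1 and 6.90% in AI-Exo, against 4.54% in PBS, while making up 19.6% and 14.2% of the cells, against 14.3%. T cells held 14.0% in PD-L1 and 23.3% in AI-Exo, against 31.6% in PBS. A large part lay outside the gates. Mixed cells held 17.3% in PD-L1 and 20.8% in AI-Exo, against 14.0% in PBS. Cells that met no gate held 10.0% in PD-L1 and 14.3% in AI-Exo, against 16.1% in PBS. The cells that met no gate had 1595 CPM [1540 to 1652] in PD-L1 and 1993 CPM [1927 to 2061] in AI-Exo, against 1692 CPM [1634 to 1750] in PBS, a level that in PD-L1 had an interval overlapping that of neutrophils and in AI-Exo and PBS was above every gate of at least 50 cells.

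Interferon beta transcripts, from the gene Ifnb1 of a ligand that induces Ifit genes, were counted in 256 PD-L1 barcodes and 330 AI-Exo barcodes, against 312 PBS barcodes. This was 2.64% and 3.16% of the cells, against 3.33%. These few barcodes held 19.5% of all Ifit UMIs in PD-L1 and 32.2% in AI-Exo, against 28.3% in PBS. Their Ifit level was 1942 CPM in PD-L1 and 1834 CPM in AI-Exo, against 1461 CPM in PBS. Barcodes without an Ifnb1 UMI stood at 424.2 and 239.4 CPM, against 242.5 CPM in PBS. Barcodes with Ifnb1 were deeper, with medians of 7615.5 and 9717 UMIs, against 10167 in PBS, while those without had 3896 and 4350, against 4270, so depth moved with having an Ifnb1 UMI and its part in the result was not tested. Ifnb1 was also in free RNA, at 63.4 and 68.5 CPM, against 90.9 CPM in PBS. Over all cells kept it was lower, at 36.0 CPM in PD-L1 and 40.1 CPM in AI-Exo, against 51.6 CPM in PBS. An Ifnb1 UMI in a barcode can thus come from free RNA, and how often it did was not tested.

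The mix of Ifit genes differed between these barcodes and the rest. In barcodes with Ifnb1, the Ifit3 and Ifit3b pair made up 15.7% of the Ifit UMIs in PD-L1 and 12.5% in AI-Exo, against 10.8% in PBS. In barcodes without it, the pair made up 39.9% and 20.1%, against 19.8%. Of the macrophages, 20% in PD-L1 and 21.2% in AI-Exo had an Ifnb1 UMI, against 17.2% in PBS, and these cells held 50.5% and 72.8% of the Ifit UMIs of their gate, against 58.0%. Macrophages without Ifnb1 were at 475.2 CPM in PD-L1 and 235.8 CPM in AI-Exo, against 215.1 CPM in PBS, so the AI-Exo over PBS log2 ratio was 0.13 there, against 0.64 with all macrophages. Classical monocytes without Ifnb1 were at 586.5 CPM in PD-L1 and 216.9 CPM in AI-Exo, against 127.3 CPM in PBS, with log2 ratios of 2.12 and 0.72, and there Ifit2 (0.25) and Ifit3 (0.23) no longer passed in AI-Exo over PBS.

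Neutrophils with an Ifnb1 UMI were 18 in PD-L1 and 19 in AI-Exo, against 11 in PBS. These 11 cells held 29.97% [27 to 33] of the Ifit UMIs of all PBS neutrophils, and the 18 PD-L1 cells held 2.89%. Without such cells, neutrophils were at 1607 CPM [1575 to 1640] in PD-L1 and 238.2 CPM [226.2 to 250.7] in AI-Exo, against 167.6 CPM [155 to 181] in PBS. The log2 ratio to PBS was then 3.19 for PD-L1 and 0.48 for AI-Exo, and the AI-Exo and PBS intervals no longer overlapped. This comparison was added after the values had been seen.

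**Figure D4:**
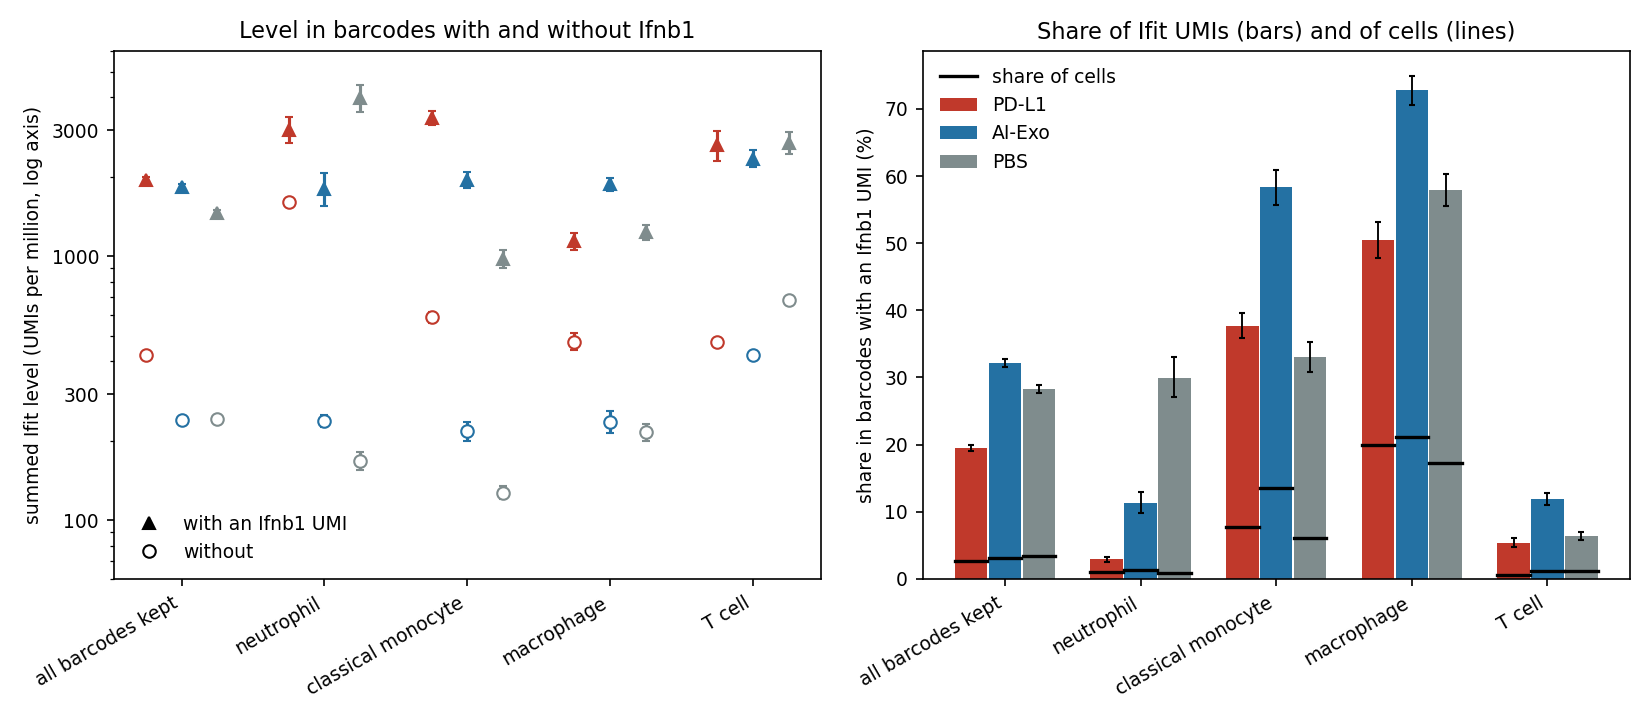
Left, summed Ifit level (CPM, log axis, 95% Poisson intervals) in barcodes with and without an Ifnb1 UMI, by library, over all barcodes kept and in 4 cell types. Right, the share (%) of Ifit UMIs held by barcodes with Ifnb1 as bars, beside the share of cells they make up as lines, such as 29.97% of the Ifit UMIs of PBS neutrophils.

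The rest of the interferon pathway was read by role, from lists drawn up with earlier results of these data known. Of the ligands, Ifnb1 gave 2227 UMIs in PD-L1 and 2895 in AI-Exo, against 3335 in PBS over all cells kept, and interferon gamma (Ifng) 4445 and 10449, against 6571. Ifna2 gave 86 and 139 UMIs, against 178, Ifna4 gave 51 and 57, against 38, and Ifnl3 gave 0 and 21, against 19. The Ifnb1 and Ifng counts were thus lowest in PD-L1, the library with the highest neutrophil and monocyte Ifit level. In classical monocytes Ifnb1 was at 135.6 CPM in PD-L1 and 99.75 CPM in AI-Exo, against 61.5 CPM in PBS, and in neutrophils at 6.84 and 8.78 CPM, against 15.9 CPM.

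None of 6 measured receptor genes passed the ratio in neutrophils for PD-L1 over PBS, with a median log2 ratio of 0.04. Over all genes measured there 3.61% were higher and 4.85% lower, with a median of -0.15, so the receptor count lay near those shares. Ifnar1 and Ifnar2, the chains that bind type I interferon, were at 81.8 and 377 CPM in PD-L1, against 75.5 and 312 CPM in PBS. Of the kinases and transcription factors 4 of 7 were higher, against 3.61% of all genes, with a median of 0.93. Irf7, an amplifier of the response, was at 225 CPM in PD-L1, against 45.45 CPM in PBS (2.08), Stat2 at 74.0 against 25.8 CPM (1.23) and Irf9 at 75.4 against 34.85 CPM (0.93). Jak1 was the lowest of the list at 494 against 728 CPM (-0.55). All 4 measured sensors were higher (median 1.22), led by Zbp1, a sensor of Z-form nucleic acid, at 277 against 41.2 CPM (2.49).

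The effectors moved with the Ifit genes in neutrophils. In PD-L1 over PBS 24 of 24 measured effectors were higher, with a median log2 ratio of 1.62, against 3.61% of all genes and a median of -0.15. Ifi27l2a, which encodes a small interferon-induced protein, led at 3082 CPM in PD-L1, against 429 CPM in PBS (2.82), and Slfn1 had the lowest ratio at 515 against 276 CPM (0.88). Isg15, a ubiquitin-like modifier, was at 2912 against 641 CPM (2.17). Among interferon gamma-induced genes 6 of 9 were higher, led by the GTPase gene Gbp7 at 120 against 20.7 CPM (2.08), while the chemokine gene Cxcl10 was at 156 against 204 CPM (-0.37). Of the feedback inhibitors Usp18, which blocks the type I receptor, was higher at 104 against 22.0 CPM (1.83). It was the 1 of 4 that passed.

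In AI-Exo neutrophils 2 of 23 measured effectors were higher than in PBS, with a median log2 ratio of 0.27, beside 5.29% of all genes and a median of 0.02. They were Ifi27l2a at 853 CPM in AI-Exo, against 429 CPM in PBS (0.98), and Xaf1, a gene linked to cell death and chosen after its value was seen, at 39.6 against 21.2 CPM (0.67). Of the interferon gamma-induced genes 4 of 8 were higher (median 0.51), led by Gbp2 at 112 against 49.7 CPM (1.03). Zbp1 was higher at 96.85 against 41.2 CPM (1.06), whereas Irf7 (0.33), Stat2 (0.01), Irf9 (-0.09) and Usp18 (-0.12) did not pass.

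In classical monocytes 22 of 26 measured effectors were higher in PD-L1 than in PBS, with a median log2 ratio of 1.21, against 8.09% of all genes and a median of -0.01. The highest was Slfn4 at 261 CPM in PD-L1, against 37.85 CPM in PBS (2.50), and the lowest Slfn5 (0.24). Ifih1, the sensor of long double-stranded RNA, was at 550 against 166 CPM (1.67), and Irf7 at 223 against 69.8 CPM (1.54). Of the receptors 1 of 5 was higher, Ifnar1 at 96.5 against 59.9 CPM (0.61), and 9 of 10 interferon gamma-induced genes were. In AI-Exo over PBS 2 of 25 effectors were higher and 1 was lower (median 0.15), beside 4.27% and 3.34% of all genes, although 3 of the 4 Ifit genes were higher. Of these Ifit genes, Ifit2 (0.25) and Ifit3 (0.23) did not pass without barcodes that held an Ifnb1 UMI. Ifit3 did not pass with TMM factors either (0.577). Rsad2, which encodes viperin, was at 401 CPM in AI-Exo, against 196 CPM in PBS (1.0), Isg15 at 435 against 244 CPM (0.81), Slfn5 at 96.5 against 193 CPM (-0.93) and Irf7 at 69.5 against 69.8 CPM (-0.01). Ifih1 was at 403 against 166 CPM (1.23), and 5 of 11 interferon gamma-induced genes were higher, led by Gbp2 at 97.8 against 20.6 CPM (1.82).

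**Figure D5:**
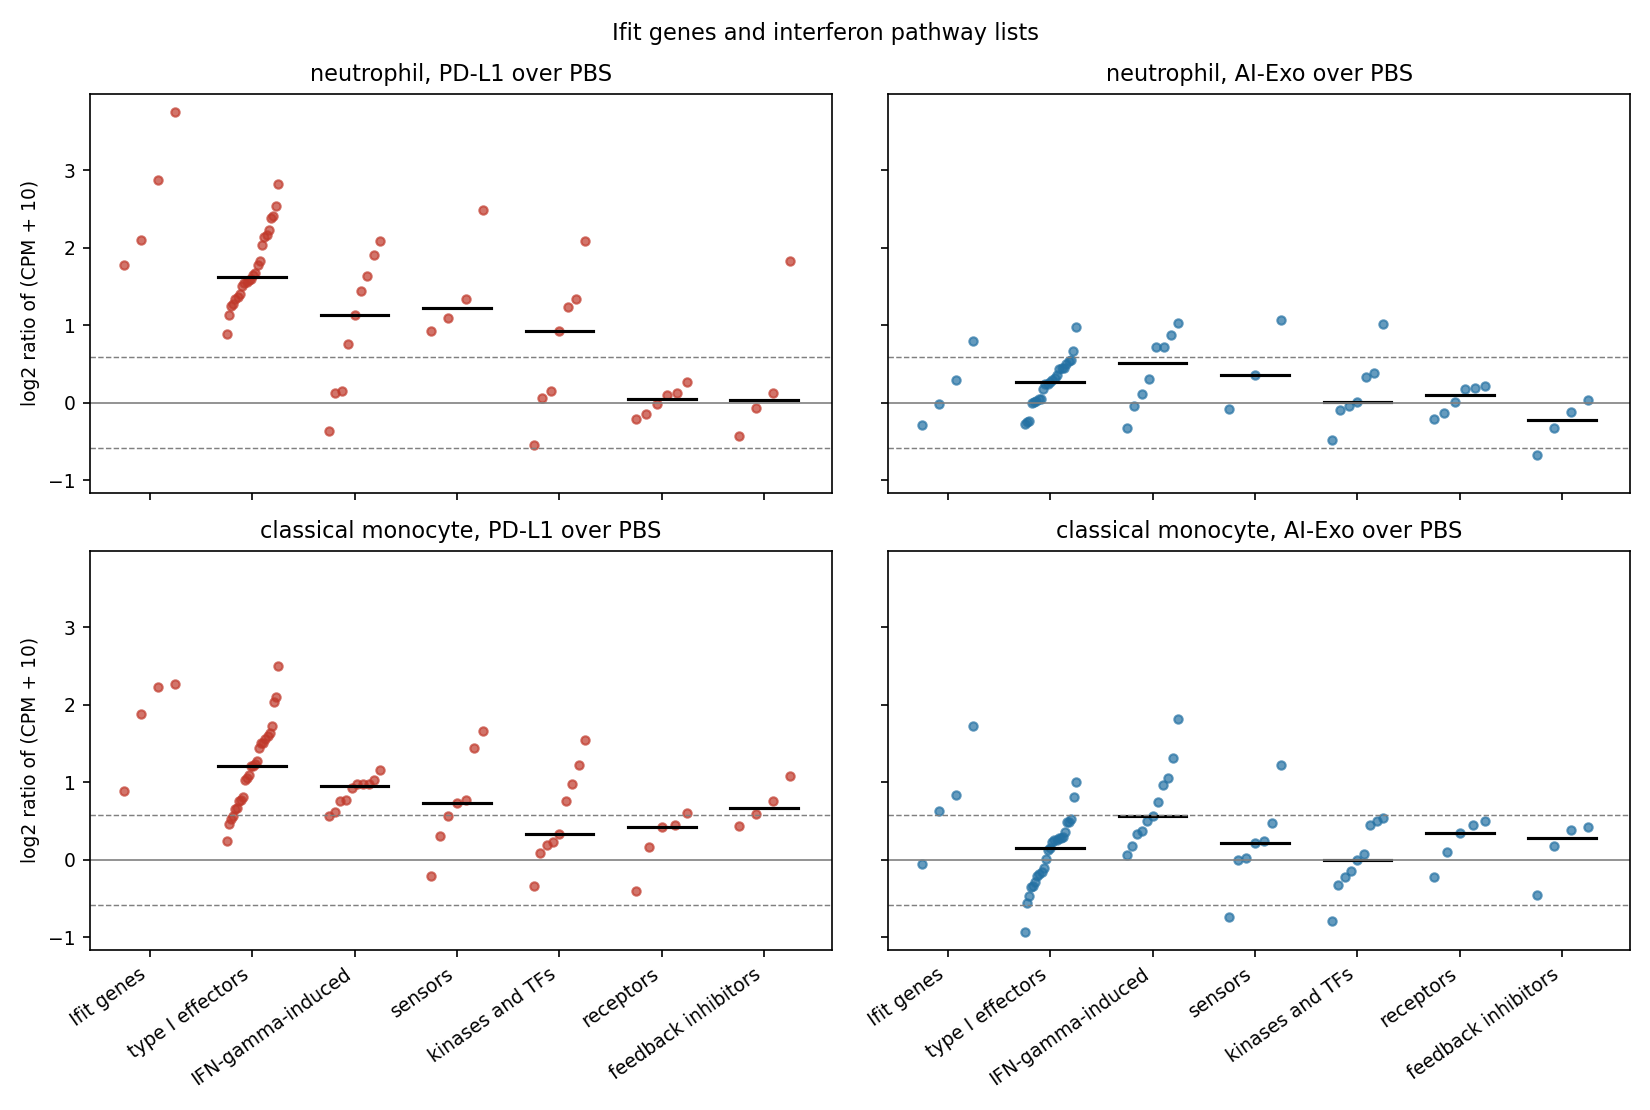
Log2 ratio to PBS of each measured member of the interferon lists (1 dot per gene, black lines at list medians, dashed lines at a ratio of 1.5) in neutrophils and classical monocytes for PD-L1 and AI-Exo. In PD-L1 neutrophils all 24 effectors lie above the upper dashed line, and in AI-Exo neutrophils 2 of 23 do.

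In PD-L1 NK cells many effectors were higher than in PBS, while the summed Ifit level was lower. Of the measured effectors 10 of 17 in NK cells were higher in PD-L1 than in PBS (median log2 ratio 0.67), beside 3.85% of all genes. Of the 4 Ifit genes 3 were lower, but Ifit2 did not pass with each cell given equal weight (-0.32). Nor did Ifit3b with 1 more marker required for the gate (-0.52). Ifi27l2a was at 167 CPM in PD-L1 NK cells, against 51.25 CPM in PBS (1.53), and Zbp1 at 106 against 43.1 CPM (1.13). Isg15, at 260.5 against 255.1 CPM (0.03), and Herc6, an Isg15 ligase in mice, at 82.35 against 99.01 CPM (-0.24), did not pass. In T cells 4 of 21 effectors were higher (median 0.38), beside 0.633% of all genes, and 1 of 4 Ifit genes (Ifit2, 76.8 against 159.3 CPM) was lower, beside 0.354%. Ifi27l2a was at 1144 CPM in PD-L1 T cells, against 510.7 CPM in PBS (1.15), and Isg15 at 384.9 against 423.4 CPM (-0.13). In AI-Exo over PBS no measured effector passed in either direction in NK cells (15 measured), T cells (19) or B cells (18). Over all genes measured in T cells 1.67% were higher and 1.03% lower in that comparison. The shares were 3.15% and 3.54% in NK cells and 0.159% and 0.753% in B cells, so the absence of calls lay near them. Of the PD-L1 B cell effectors 15 of 21 were higher than in PBS (median 0.86), against 0.641% of all genes, and of the PD-L1 macrophage effectors 15 of 23 (median 0.80), against 3.37%.

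Genes were ranked by their likeness to the summed Ifit level over 38 sums of 15 cell types and 3 libraries, by Pearson's r of log2 CPM plus 10. The sums share libraries and depth, so the values describe these data only. Of the 8955 genes ranked, the 10 closest besides the members were Isg15 (0.86), Herc6 (0.79), Ifnar1 (0.79), Parp14 (0.77), Irf7 (0.74), Zbp1 (0.74), Slc3a2 (0.74), Ifi47 (0.73), Rsad2 (0.73) and Rtp4 (0.71). Ifnar1 followed differences between cell types more than between libraries, since its r within types was 0.41, against 0.91 for Isg15. Among the members, Ifit3 and Ifit3b were closest at 0.93, Ifit1 and Ifit2 reached 0.76, and Ifit2 and Ifit3b were the farthest apart at 0.53.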

How the data were processed

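Cells from mouse tissue labelled non-small cell lung cancer were profiled in 3 droplet libraries, 1 per group. The deposited values are raw UMI counts for each gene and barcode, with no normalization. Per the file headers, Cell Ranger 7.1.0 wrote the matrices the authors deposited, and the submitters' processing notes name version 3.0.2. Build, annotation and treatment of intronic reads were not given in the sources used here. Empty droplets are included, with 794333 barcodes in PD-L1, 858023 in AI-Exo and 840360 in PBS, and 65997942, 76512500 and 68386729 UMIs in all.

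Barcodes were filtered as the report states. Each marker was scaled to its 99th percentile, and a cell took the type with the highest mean score among types with at least 3 markers detected (2 of the immature T-lineage list within T cells). A second lineage at 0.5 of that score or more made it mixed. Scrublet's automatic threshold called 0, 0 and 1 doublets, so it did not work and no doublets were removed in the values given. A score of 0.15, which marks 551, 659 and 451 cells, served as an alternative.

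UMIs were summed per gate and library, scaled to CPM and compared as log2 ratios of CPM plus 10. Sums carry exact Poisson intervals and shares exact Clopper-Pearson intervals, at 95%. UMIs of 1 library are not replicates, so intervals and the limit of 3 counts for a count of 0 cover counting error only. For shares, cells were thinned to 1000 UMIs and shallower cells left out. Besides the members, the genes named were the 10 closest in level, the highest and lowest of each pathway list in neutrophils and classical monocytes, Ifnar1, Ifnar2, Stat2, Irf9, Irf7 and Usp18, and gate markers. A gene that this rule also names is not reported here. Other genes given, such as Ifng, are ligands or were chosen after their values were seen. The members, lists and tests were chosen with earlier results of these data known. Sequences are RefSeq's for GRCm38.p6. The scripts were tested on simulated data. Python 3.11.15, numpy 2.4.6, scipy 1.17.1, pandas 2.3.3, scanpy 1.11.5, Biopython 1.88, matplotlib 3.10.9, R 4.3.3 and edgeR 4.0.16 (TMM factors only) were used.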

Additional observations from a re-analysis of the deposited data

Results flagged for a closer look

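The effect of a library on the summed Ifit level went in different directions in different cell types, and with 1 library per group these differences were not tested. For PD-L1 over PBS the log2 ratio was 2.74 in neutrophils, 2.19 in classical monocytes, 2.11 in nonclassical monocytes, 0.95 in B cells and 0.70 in macrophages, but -1.05 in NK cells. T cell subsets were left out of these lists. CD4 T cells were at -1.0 for PD-L1 over PBS and were also lower in AI-Exo than in PBS. For AI-Exo over PBS the log2 ratio was 1.29 in classical monocytes, 1.23 in alveolar macrophages and 0.64 in macrophages. It was -0.60 in T cells and -0.68 in type 1 conventional dendritic cells. The dendritic cell value no longer passed without Scrublet-scored doublets (-0.56) or with 1 more marker (-0.31). The T cell value did not pass with TMM factors (-0.54), size factors (-0.55) or 1 more marker (-0.55). The macrophage value did not pass without Ifnb1 barcodes (0.13). For AI-Exo over PD-L1 the log2 ratio was 1.30 in alveolar macrophages and 0.92 in NK cells, but -0.84 in B cells, -0.90 in classical monocytes, -1.77 in nonclassical monocytes and -2.58 in neutrophils.

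Barcodes that no cell type comparison uses carried Ifit transcripts above their PBS level in some libraries. Free RNA had 462.5 CPM in PD-L1 and 340.7 CPM in AI-Exo, against 340.9 CPM in PBS. Cells with markers of 2 lineages had 559.9 CPM in PD-L1 and 380.8 CPM in AI-Exo, against 313.0 CPM in PBS. Cells that met no gate had 1595 CPM in PD-L1 and 1993 CPM in AI-Exo, against 1692 CPM in PBS.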

How the results depend on the processing

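No paired analysis was possible because each group is 1 library with no replicate number, and no replicate could be left out. Under 9 other settings, and 2 added after seeing the data (no Ifnb1 barcodes, gates without Ly6c2), none of 198 ratios changed sign where it was called, and of 105 called 94 (barcodes with Ifnb1 left out) to 105 stayed past the ratio. In the neutrophil, classical monocyte, CD4 T and NK gates, the summed ratios that moved beyond counting error were these. In neutrophils PD-L1 over PBS (2.74) was 2.98 with TMM factors, 2.96 with size factors, 3.23 with cells weighted equally, 2.97 without Scrublet-scored doublets and 3.19 without Ifnb1 barcodes. AI-Exo over PBS (0.16) was 0.66 with equal weights, which passes the ratio, 0.37 without doublets and 0.48 without Ifnb1. AI-Exo over PD-L1 (-2.58) was -2.84 with TMM or size factors and -2.70 without Ifnb1. In classical monocytes PD-L1 over PBS (2.19) was 2.32 with 1 more marker and 2.30 without Ly6c2 in the gates. AI-Exo over PBS (1.29) was 1.46 with equal weights, 1.41 with 1 more marker, 0.72 without Ifnb1 and 1.46 without Ly6c2. AI-Exo over PD-L1 (-0.90) was -0.67 with equal weights and -1.39 without Ifnb1. In CD4 T cells AI-Exo over PBS (-1.19) was -1.08 with TMM and -1.02 with equal weights, and AI-Exo over PD-L1 (-0.18) was -0.023 with equal weights. In NK cells AI-Exo over PBS (-0.13) was 0.16 with equal weights.

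Shares with an Ifit UMI follow depth. In neutrophils they were 80.9%, 46.8% and 79.1% in PD-L1 without thinning and at 500 and 2000 UMIs, 31.1%, 10.8% and 24.7% in AI-Exo, and 12.4%, 5.73% and 10.9% in PBS. In classical monocytes they were 66.5%, 22.1% and 49.3% in PD-L1, 46.1% without thinning and 28.5% at 2000 in AI-Exo, and 25.0%, 5.14% and 12.6% in PBS. With a minimum mean of 50 CPM, genes higher than in PBS numbered 115 in PD-L1 and 128 in AI-Exo neutrophils (201 and 311 at 10 CPM), and 345 and 143 in monocytes (588 and 312). Calls lost include AI-Exo over PBS in T cells (-0.60, and -0.54 with TMM), in macrophages (0.64, and 0.13 without Ifnb1) and in type 1 dendritic cells (-0.68, -0.56 without doublets and -0.31 with 1 more marker), and monocyte Ifit2 and Ifit3 (0.84 and 0.62, and 0.25 and 0.23 without Ifnb1). Monocyte Ifit3 in AI-Exo over PBS also did not pass with TMM factors (0.577). The cause of these losses was not tested.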
